A study of Mus musculus with 8 samples.

Results

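Cytosolic ribosomal proteins were examined in RNA-seq of the mouse ventral hippocampus. The rule that defines the genes uses names and annotation and no measured value. They are the protein-coding genes of the GENCODE M21 annotation (GRCm38) whose symbol begins with Rpl or Rps followed by a digit, without the S6 kinases (Rps6k) and the binding protein *Rps19bp1*, together with *Rplp0*, *Rplp1*, *Rplp2* and *Rpsa*. This gave 91 of the 50686 genes in the count table, 57 of the large and 34 of the small subunit, spread over 20 chromosomes. Of these, 6 carry a pseudogene name (-ps) although the annotation calls them protein-coding. The mice were 8-week-old males of strain C57BL/6 J, spelled C57B6/J in the sample labels. One group of 4 received a vehicle injection and the other group of 4 received 3 mg/kg corticosterone, the main glucocorticoid of rodents. Both groups were injected in the morning and killed 3 h later, and each library held the ventral hippocampus of 1 mouse. Library numbers 1 to 4 are vehicle mice and numbers 5 to 8 corticosterone mice. The comparison asks which transcripts differ 3 h after a rise in corticosterone.

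The cytosolic ribosome is built from a large and a small subunit, each an assembly of ribosomal RNA and of proteins in fixed proportions. The genes of these proteins are expressed in every cell, and their mRNAs begin with a run of pyrimidines, the terminal oligopyrimidine (TOP) tract, through which mTORC1 controls their translation together. Ribosomal protein mRNAs are also copied back into the genome more often than most, so that each gene has intronless relatives that carry almost the same sequence.

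These copies decide where a short read can be placed. Of the 91 genes, 85 had at least 1 near-identical copy among the annotated pseudogenes or the other ribosomal protein genes, defined as a match of at least 95% identity over at least 100 bases of the gene's principal transcript. The median was 4 copies per gene, and *Rpl21* had 54. The sequences below are 60-base stretches of coding sequence from the GENCODE M21 transcripts. They are shown for genes among those with the lowest and the highest estimates after corticosterone. Copies do not mark these genes, since 85 of the 91 have one. Across the tested genes, the log2 fold change and the share of reads on copies had a rank correlation of -0.14. Capitals mark the bases at which a gene and its copy differ. *Rps27* (chr3:90212522-90213651, minus strand) and the retrogene *Rps27rt* (chr9:114982366-114982739, minus strand) had identical coding sequences over 252 bases, which begin as follows.
Rps27 and Rps27rt: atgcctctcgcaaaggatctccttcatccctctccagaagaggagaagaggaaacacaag
*Rps16* (chr7:28350652-28353155, plus strand) and the processed pseudogene *Rps16-ps2* (chr5:129128077-129128517, minus strand) were likewise identical over 438 bases.
Rps16 and Rps16-ps2: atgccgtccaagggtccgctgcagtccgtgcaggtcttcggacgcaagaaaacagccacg
*Rpl5* (chr5:107900502-107909005, plus strand) and *Gm15500* (chr7:114705217-114706235, minus strand) were identical over 891 bases.
Rpl5 and Gm15500: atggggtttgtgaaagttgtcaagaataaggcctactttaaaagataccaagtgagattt
*Rpl23* (chr11:97777527-97782437, minus strand) and *Gm9794* (chr6:66875321-66875743, minus strand) differed at 1 of 420 coding bases.
Rpl23: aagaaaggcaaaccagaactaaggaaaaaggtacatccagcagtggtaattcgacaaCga
Gm9794: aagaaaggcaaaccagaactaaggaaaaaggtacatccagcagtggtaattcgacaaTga
*Rpl36a* (chrX:134585654-134588062, plus strand) and *Rpl36a-ps1* (chr14:98993870-98994318, minus strand) differed at 7 of 318 coding bases, of which 5 fall in the stretch shown.
Rpl36a: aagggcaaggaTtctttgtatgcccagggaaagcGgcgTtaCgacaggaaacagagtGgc
Rpl36a-ps1: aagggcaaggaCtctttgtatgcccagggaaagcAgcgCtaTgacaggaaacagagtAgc
*Rpl29* (chr9:106429454-106431568, plus strand) and *Rpl29-ps2* (chr13:4609334-4615025, plus strand) differed at 11 of 480 coding bases, the most of the pairs shown.
Rpl29: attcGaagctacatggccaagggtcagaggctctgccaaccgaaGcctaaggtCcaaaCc
Rpl29-ps2: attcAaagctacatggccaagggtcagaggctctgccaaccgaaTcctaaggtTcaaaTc

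The pyrimidine run at the start site was looked for in RefSeq promoters (GRCm38.p6), which hold 77 entries for 65 of the genes. Windows of 30 bases, 15 on each side of the annotated start, were searched for CTTTC and CTTCC, which can share letters where they follow each other. At least 1 of them stood on the transcribed strand in 35.1% of the ribosomal protein windows and in 10.3% of the windows of all 32851 promoters. On either strand the shares were 45.5% and 20.2%. Windows of 3 genes whose values are given below are shown with the matches in capitals, and the start site follows the fifteenth base.
Rps27 (chr3:90213634-90213663, minus strand): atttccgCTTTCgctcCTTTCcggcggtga
Rplp2 (chr7:141447636-141447665, plus strand): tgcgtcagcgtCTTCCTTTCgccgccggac
Rpl13 (chr8:123102335-123102364, plus strand): ttccCTTTCgcctgattttgattggcgttt
A match says only that these letters stand in the window.

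The libraries held between 17492159 and 19931987 reads on genes, and the ribosomal protein genes took between 0.616% and 0.758% of them. Fewer cells of a type and less RNA per cell cannot be told apart in such bulk samples. The pan-neuronal markers *Snap25*, *Syt1* and *Rbfox3* summed to between 3830 and 4470 CPM (reads relative to library size, scaled by the trimmed mean of M-values, TMM), over all libraries, and markers of hippocampal excitatory neurons to between 879 and 1040 CPM in vehicle and to 921, 797, 783 and 813 CPM in corticosterone libraries 5 to 8. Of these 7 excitatory markers, 5 had estimates below 0 (49.3% of all genes did) with a median of -0.17 (log2), 2 of them with an unadjusted p value under 0.05 (4.52% of all genes in that direction) and 0 past the adjusted threshold with edgeR. Libraries of the corticosterone group did not resemble each other equally. Over all genes, the counts of corticosterone libraries 6, 7 and 8 differed pairwise by 3.39 to 3.97 times what sampling of reads alone gives (chi-square per degree of freedom), whereas corticosterone library 5 differed from them by 25.5 to 32.2 times. The vehicle libraries differed from each other by 8.28 to 18.3 times, most for libraries 3 and 4. The labels name no batch.

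The ribosomal protein genes followed the same division. The median deviation of the 85 genes that passed the filter on low counts from their own mean over the 8 libraries was 0.08, 0.13, 0.04 and -0.08 (log2) in vehicle libraries 1 to 4. It was 0.14 in corticosterone library 5 and -0.13, -0.09 and -0.14 in libraries 6, 7 and 8. Corticosterone library 5 thus sat at the upper end with vehicle libraries 1 to 3, and vehicle library 4 sat with corticosterone libraries 6 to 8, so that the 2 groups overlapped. The share of gene reads on mitochondrially encoded genes divided the libraries in the same way, at 5.63%, 5.54% and 4.62% in vehicle libraries 1 to 3 and 4.41% in corticosterone library 5, against 6.41% in vehicle library 4 and 6.71%, 6.89% and 7.34% in corticosterone libraries 6 to 8. Its part in the ribosomal protein values was not tested. Corticosterone library 5 held the highest value of all 8 for 28 of the genes, and libraries 6 and 8 held the lowest for 21 and 22. Vehicle library 3, whose median deviation was above 0, held the lowest for 17, more than vehicle library 4 with 11 or corticosterone library 7 with 8. Within the corticosterone group, library 5 was above the other 3 for 59 of the 85 genes, which was the case for 37.2% of all genes tested. Within the vehicle group, library 4 was below the other 3 for 51 of the 85 genes, against 29.9% of all genes. The first principal component carried 71.0% of the variance of the ribosomal protein genes, against 33.7% for all genes, and it divided the libraries in the same way.

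**Figure D1:**
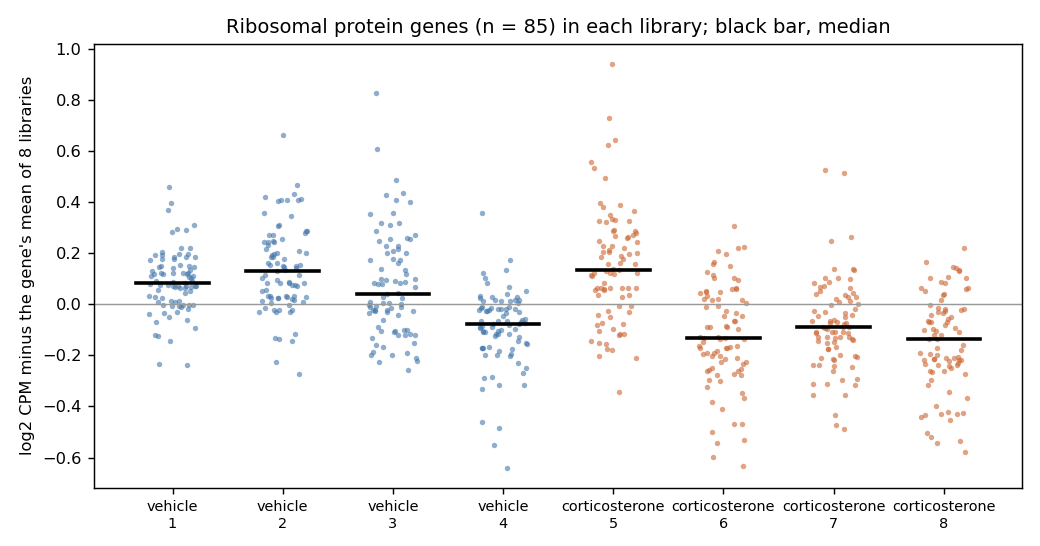
Deviation of each of the 85 ribosomal protein genes (points) from its own mean over 8 libraries, on the log2 CPM scale, by library (vehicle in blue, corticosterone in orange). The black bars are medians, and they lie above 0 in vehicle libraries 1 to 3 and in corticosterone library 5, and below 0 in the other 4 libraries.

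Between the groups, no ribosomal protein gene passed the test. With edgeR's quasi-likelihood test, 0 of the 85 genes had an adjusted p value under 0.05, where 0.00624% of all 16018 genes tested did, and the smallest adjusted p value was 0.499 (*Rps27*). DESeq2 and limma-voom also called 0 of the genes. At an unadjusted p value under 0.05, 4 genes were lower in corticosterone (4.71%, against 4.52% of all genes), namely *Rps27*, *Rps16*, *Rpl29* and *Rpl13*, and 0 were higher (against 4.51% of all genes). DESeq2, which tested 90 of the genes, gave 7 at that level, all lower, against 2.83% of all genes in that direction, and limma-voom gave 7, all lower, against 4.86%. Vehicle and corticosterone values were fully separated for 1 lower gene, *Rps27*, where 1.68% of all genes behaved so, and for 0 genes that were higher, where 1.99% did.

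The estimates themselves were more often negative than positive. The log2 fold change was below 0 for 65 of the 85 genes, against 49.3% of all genes tested, and above 0 for 20. Its median was -0.10 (log2), while the median over all genes was 0.00, and the estimates ran from -0.52 (*Rps16*) to 0.27 (*Rpl36a-ps1*). The small subunit had 26 of 34 estimates below 0 with a median of -0.14, and the large subunit had 39 of 51 with a median of -0.07. Without corticosterone library 5 these medians were -0.23 and -0.15, and that of all 85 genes was -0.17 with 67 estimates below 0. Scaling by DESeq2 size factors, by the upper quartile or by total counts left 65, 65 and 63 estimates below 0. These genes vary together across libraries, as the deviations above show, so that the number of negative estimates does not count independent observations.

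**Figure D2:**
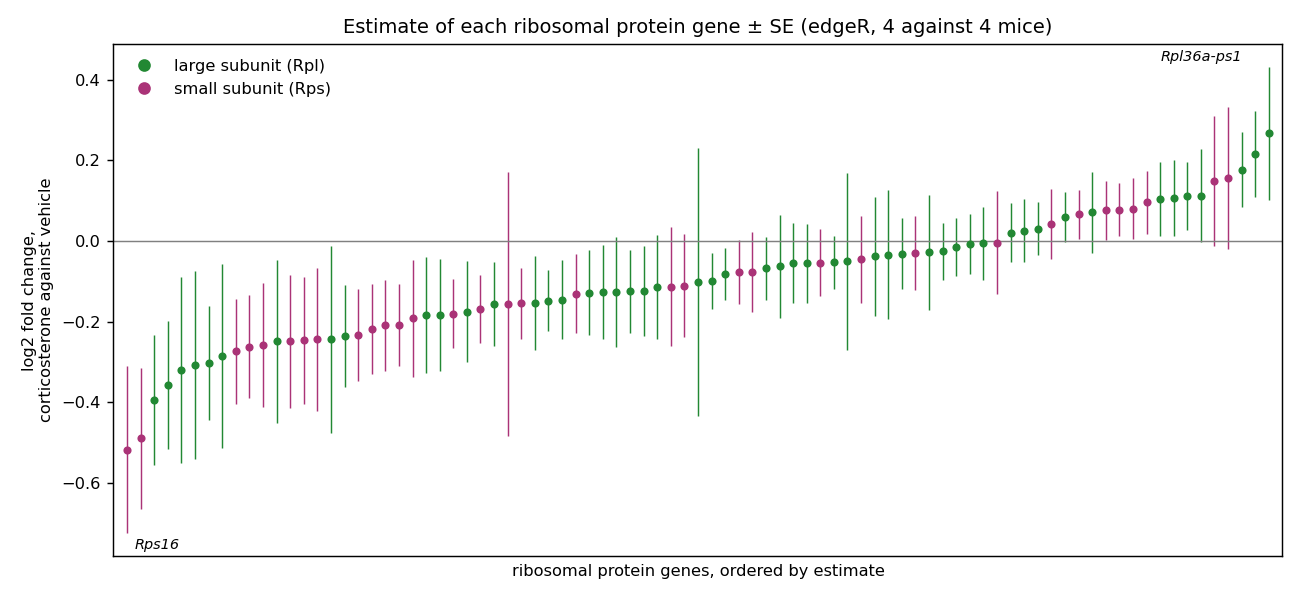
Log2 fold change of corticosterone against vehicle for each of the 85 genes, ordered by size, with the standard error as a bar (edgeR, 4 against 4 mice; large subunit in green, small subunit in purple). Of the 85 estimates, 65 lie below 0, and the range is -0.52 to 0.27.

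*Rps27*, which encodes a zinc finger protein of the small subunit, had the smallest p value. Its level was 3.28, 4.19, 3.27 and 3.97 CPM in the vehicle libraries and 2.65, 2.10, 3.13 and 2.59 CPM in the corticosterone libraries. All 4 corticosterone values lay below all 4 vehicle values (3.68 ± 0.474 against 2.62 ± 0.422 CPM, SD, n = 4), a log2 fold change of -0.49 with a standard error of 0.175. With groups that do not overlap, the exact two-sided permutation test can only give p = 0.0286, the smallest that 4 against 4 mice allow. This value therefore adds no support. *Rps27* was picked for the smallest p value of the 85 genes, and 1.68% of all genes were separated in this direction. Its retrogene *Rps27rt* held far more reads, at 90.6, 95.8, 91.1 and 88.2 CPM in vehicle and 84.9, 100, 103 and 97.8 CPM in corticosterone, with a log2 fold change of 0.08 ± 0.0735 (SE). The groups overlapped for *Rps27rt*. The sum of *Rps27* and its 4 copies was 95.2 ± 3.42 CPM in vehicle and 99.0 ± 8.01 CPM in corticosterone (SD, n = 4; exact permutation p = 0.4), and *Rps27* itself was 3.24% of it.

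*Rps16*, also of the small subunit, had the lowest estimate of all. Its level was 5.85, 4.91, 6.79 and 4.07 CPM in vehicle and 5.19, 2.89, 3.73 and 3.26 CPM in corticosterone, so that corticosterone library 5 lay among the vehicle values. The log2 fold change was -0.52 ± 0.207 (SE; adjusted p = 0.532 with edgeR's quasi-likelihood test). *Rps16-ps2*, with the same coding sequence, stood at 91.9 to 108 CPM in vehicle and 93.0 to 105 CPM in corticosterone, a log2 fold change of -0.07 ± 0.0735 (SE). *Rps16* was 4.34% of the sum over itself and its 3 copies, and this sum was 109 ± 8.12 CPM in vehicle and 103 ± 6.26 CPM in corticosterone (SD, n = 4; exact permutation p = 0.229).

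*Rpl29* and *Rpl13* also had small p values in the lower direction and hold larger shares of the sum with their copies. *Rpl29*, a basic protein of the large subunit, was at 85.6, 83.2, 94.7 and 64.8 CPM in vehicle and at 88.2, 54.5, 54.9 and 51.8 CPM in corticosterone. Corticosterone library 5 lay with the vehicle libraries, and vehicle library 4 was the lowest of its group. The log2 fold change of *Rpl29* was -0.40 ± 0.161 (SE; adjusted p = 0.532 with edgeR), and it was -0.22 after correction for the trend with GC content and length described below. *Rpl29* was 84.6% of the sum with its copies. *Rpl13* was at 28.5, 21.9, 24.0 and 20.9 CPM in vehicle and 22.5, 22.5, 14.9 and 14.4 CPM in corticosterone, a log2 fold change of -0.36 ± 0.158 (SE). Here corticosterone libraries 5 and 6 reached into the vehicle range. *Rpl13* had an adjusted p value of 0.545 with edgeR. It held 3255 reads against 3564 on its copies, 47.7% of the sum in CPM, and the log2 difference of that sum was -0.26 (exact permutation p = 0.0571).

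Among the genes with higher estimates, *Rpl5*, which binds 5S ribosomal RNA, had the smallest p value. It was at 20.5, 17.3, 18.5 and 19.3 CPM in vehicle and 18.2, 25.1, 22.3 and 22.2 CPM in corticosterone, a log2 fold change of 0.22 ± 0.107 (SE; adjusted p = 0.545 with edgeR). After the same correction the estimates of *Rpl5* and *Rpl23* were 0.11 and 0.12. *Rpl23* was at 88.7, 79.2, 74.5 and 85.9 CPM in vehicle and 77.0, 99.5, 93.5 and 101 CPM in corticosterone, a log2 fold change of 0.18 ± 0.093 (SE; adjusted p = 0.546). For both genes corticosterone libraries 6, 7 and 8 lay above all vehicle values and library 5 lay inside them. *Rpl36a-ps1* had the highest estimate, 0.27 ± 0.164 (SE), from 4.64 to 5.59 CPM in vehicle and 5.04 to 8.07 CPM in corticosterone, and 0.12 without corticosterone library 7. It was 9.16% of the sum with its copies, which was 62.0 ± 4.29 CPM in vehicle and 62.4 ± 2.32 CPM in corticosterone (SD, n = 4). *Rpl35a* (0.11 ± 0.0839) and *Rps3a1* (0.10 ± 0.0783) completed the 5 genes with the smallest p values in this direction, with 0.02 and 0.06 after correction for GC content and length. The copy *Gm15500* held 79.7 to 110 CPM and had a log2 fold change of 0.13 ± 0.0932 (SE), where *Rpl5* was 17.4% of the sum with its copies. *Rpl23* was 44.2% of such a sum, and its copy *Gm9794* held 16897 reads against 13366 on the gene. *Gm9794* stood at 96.7 to 119 CPM in vehicle and 104 to 117 CPM in corticosterone, and the sum was 192 ± 12.1 and 204 ± 7.80 CPM (SD, n = 4; exact permutation p = 0.2).

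**Figure D3:**
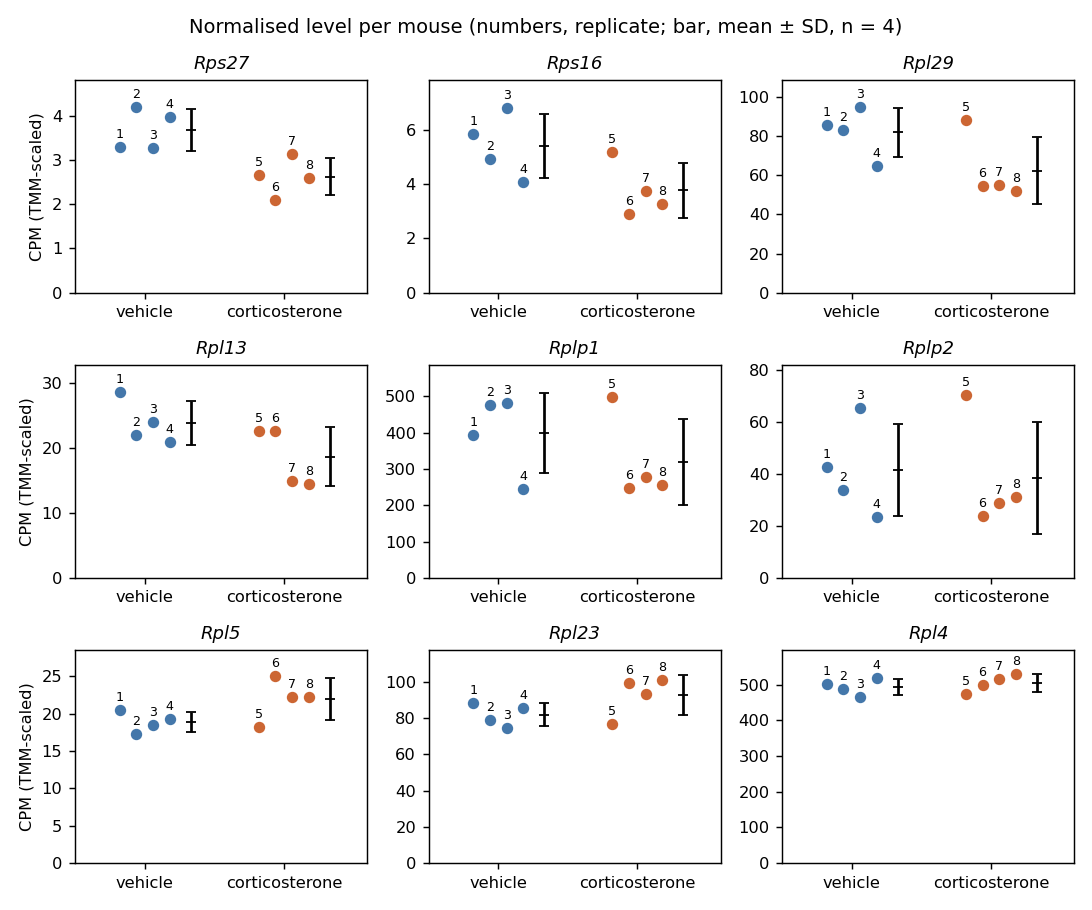
Normalised level (CPM, TMM-scaled; axes start at 0) of *Rps27*, *Rps16*, *Rpl29*, *Rpl13*, *Rplp1*, *Rplp2*, *Rpl5*, *Rpl23* and *Rpl4* in each mouse, with the replicate number beside each point and mean ± SD (n = 4) beside each group. In *Rplp1* vehicle replicate 4 (245 CPM) lies with corticosterone replicates 6 to 8 and corticosterone replicate 5 (497 CPM) with vehicle replicates 1 to 3, whereas in *Rps27* the groups do not overlap.

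The stalk of the large subunit, formed by *Rplp0*, *Rplp1* and *Rplp2* and needed to recruit elongation factors, showed the division between libraries clearly in *Rplp1*. *Rplp1* was at 394, 475, 481 and 245 CPM in vehicle and 497, 248, 277 and 257 CPM in corticosterone. Its highest value was in a corticosterone mouse and its lowest in a vehicle mouse, and the log2 fold change of -0.32 ± 0.231 (SE; adjusted p = 0.620 with edgeR) lay well within that spread. The *Rplp1* estimate was -0.19 after correction for GC content and length and -0.61 without corticosterone library 5 (adjusted p = 0.036 with edgeR). *Rplp2* was at 42.7, 33.8, 65.1 and 23.5 CPM in vehicle and 70.4, 23.6, 28.6 and 31.0 CPM in corticosterone, with 42.9% and 56.1% coefficients of variation. *Rplp0* varied less, at 206, 200, 181 and 175 CPM in vehicle and 189, 169, 164 and 166 CPM in corticosterone, a log2 fold change of -0.15 ± 0.0761 (SE; adjusted p = 0.546). *Rpsa*, a small subunit protein that also serves as the laminin receptor, was at 304, 345, 282 and 277 CPM in vehicle and 299, 255, 258 and 253 CPM in corticosterone (log2 fold change -0.18 ± 0.085, SE; adjusted p = 0.545). In both *Rplp0* and *Rpsa* corticosterone libraries 6 to 8 lay below all vehicle values and library 5 did not.

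Levels differed widely between genes. Per kilobase of merged exons, the median of the 85 genes in vehicle was 23.8 CPM, against 4.59 CPM for all 15989 tested genes with a length, and 39 of them stood in the top 10% of those genes. *Rplp1* was the highest at 799 ± 220 CPM per kilobase (SD, n = 4), rank 17 of all genes, followed by *Rps15* at 430 ± 45.8, *Rpl4* at 246 ± 11, *Rps27rt* at 245 ± 8.51 and *Rpl41* at 215 ± 14.2 CPM per kilobase. *Rpl4* and *Rps27rt* did not differ beyond their spread. The lowest of the genes that passed the filter were *Rps13* at 1.70 ± 0.291, *Rps12* at 1.98 ± 0.258, *Rpl12* at 3.06 ± 0.492, *Rpl17* at 3.09 ± 0.079 and *Rpl10a* at 3.27 ± 0.375 CPM per kilobase, of which the last 3 did not differ beyond their spread. From lowest to highest the levels spanned 470-fold. With the length of the principal transcript in place of merged exons, *Rplp1* and *Rps15* were again the highest, *Rps13* was at 7.76 and *Rpl10a* at 10.9 CPM per kilobase, and the lowest was *Rps12-ps3* at 3.94 CPM per kilobase.

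Copies held more reads than the gene for each of these 5 low genes. Summed over the 8 libraries, *Rpl12* had 1668 reads and its copies 19346, *Rps13* had 646 and its copies 3372, *Rpl10a* had 1209 and its copy *Rpl10a-ps1* 7597, *Rpl17* had 621 and its copies 3126, and *Rps12* had 647 and its copies 965. At the other end, *Rplp1* had 55374 reads and its copies 481, and *Rpl41* had 37847 and no copy by this definition. Copies held more reads than the gene itself for 38 of the 91 genes. *Rps29*, which is often used with other ribosomal protein genes as a reference, had 1423 reads against 33385 on its copies, of which *Gm14303* held 33338. The 551 copies that are not themselves counted among the 91 genes took between 0.312% and 0.358% of the reads on genes. Reads that match a gene and its copy equally well cannot be assigned to either from the counts. Read pairs set aside as not uniquely aligned were 0.070% to 0.111% in vehicle and 0.042% to 0.054% in corticosterone, which did not overlap. Pairs set aside as ambiguous between genes were 1.40% to 1.67% in vehicle and 1.25% to 1.48% in corticosterone. The part of these differences in the ribosomal protein values was not tested.

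**Figure D4:**
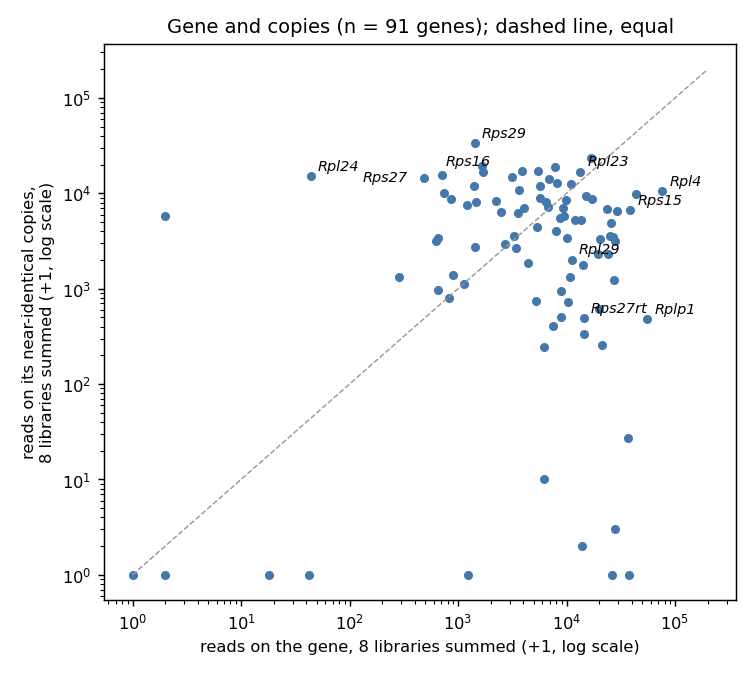
Reads on each of the 91 ribosomal protein genes (horizontal axis) and on its near-identical copies (vertical axis), each summed over 8 libraries with 1 added, on log scales. Points above the dashed line of equal reads are the 38 genes with more reads on copies than on the gene, among them *Rps29* with 1423 and 33385 reads.

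Of the 551 copies, 175 passed the filter, 120 had an estimate below 0 (49.3% of all genes did), and the median log2 fold change was -0.09. At an unadjusted p value under 0.05, 13 were lower and 6 higher, where 4.52% and 4.51% of all genes were, and 0 passed the adjusted threshold with edgeR. When the rows with a -ps name were added to their parent gene, 60 of 81 genes had an estimate below 0 with a median of -0.08.

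Several smaller groups were described by their function. Proteins that join 5S ribosomal RNA or bind the p53 regulator Mdm2 (*Rpl5*, *Rpl11*, *Rpl23*, *Rpl26* and *Rps7*) had 3 estimates above and 2 below 0, with a median of 0.02 that was -0.02 without corticosterone library 5 and 0.11 after correction for GC content and length. *Rpl11* was at 23.4 to 26.6 CPM in vehicle and 20.5 to 27.1 CPM in corticosterone, *Rpl26* at 161 to 185 and 167 to 191 CPM, and *Rps7* at 32.7 to 46.3 and 26.8 to 44.5 CPM. A list of 10 of the genes in which mutations cause Diamond-Blackfan anaemia, a failure of red cell formation, had 7 estimates below 0 and a median of -0.14, and without corticosterone library 5 the median was -0.23 and 4 of the 10 were called lower, where 6.47% of all genes were. After correction for GC content and length the median of this list was -0.08. *Rps19*, the one most often mutated in that disease, was at 63.4 to 71.3 CPM in vehicle and 55.0 to 71.6 CPM in corticosterone (log2 fold change -0.15 ± 0.0882, SE). In each of these the groups overlapped.

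The genes used as references in quantitative PCR are of practical interest, since they are taken to be stable. *Rplp0*, *Rpl13a*, *Rpl19*, *Rpl32*, *Rps18* and *Rps29* all had estimates below 0, with a median of -0.06 (log2), and 0 of the 6 had an unadjusted p value under 0.05. Without corticosterone library 5 the median was -0.17 and 0 of the 6 passed the adjusted threshold with edgeR. *Rpl32* was the closest to 0, at 141 ± 9.22 CPM in vehicle and 139 ± 8.31 CPM in corticosterone (SD, n = 4). *Rpl13a* was at 14.8 ± 0.928 and 14.3 ± 1.09 CPM, *Rpl19* at 26.9 ± 3.19 and 25.7 ± 4.67 CPM, and *Rps18* at 95.8 ± 10.6 and 92.8 ± 14.1 CPM. *Rps29* was at 9.88 ± 1.34 and 8.64 ± 1.54 CPM. After correction for GC content and length, the estimates were -0.11 for *Rplp0*, -0.17 for *Rps29*, -0.04 for *Rps18*, 0.00 for *Rpl13a*, 0.01 for *Rpl19* and 0.00 for *Rpl32*. *Rplp0* alone of the 6 then had an unadjusted p value under 0.05 (adjusted p = 0.489 with edgeR). Over the 85 genes the median coefficient of variation was 10.3% in vehicle and 12.7% in corticosterone. The same comparison over all genes is not given, so the difference cannot be called particular to this family.

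*Rps6*, the substrate of S6 kinase, was at 8.30 to 10.8 CPM in vehicle and 7.83 to 10.2 CPM in corticosterone, with 11868 reads on its copies against 1399 on the gene. *Rps27a*, which is made as a fusion with ubiquitin, was at 9.18, 10.3, 9.86 and 10.4 CPM in vehicle and 8.70, 9.35, 7.41 and 8.95 CPM in corticosterone. Only corticosterone library 6 reached into the vehicle range, and the log2 fold change was -0.21 ± 0.113 (SE; adjusted p = 0.550 with edgeR; exact permutation p = 0.0571). Of the 4 X-linked genes, *Rps4x* was at 155 to 172 CPM in vehicle and 167 to 175 CPM in corticosterone. *Rpl10* was at 7.11 to 8.17 and 6.80 to 7.63 CPM, *Rpl36a* at 9.64 to 10.3 and 8.38 to 9.87 CPM, and *Rpl39* at 59.0 to 75.0 and 59.9 to 74.1 CPM.

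Paralogues of the standard genes ranged from almost no reads to levels near the median of the family. *Rpl7l1* was at 40.5 ± 2.20 CPM in vehicle and 41.3 ± 2.63 CPM in corticosterone (SD, n = 4), *Rpl22l1* at 21.9 ± 1.57 and 23.0 ± 2.60 CPM, *Rpl36al* at 36.4 ± 5.54 and 32.0 ± 6.82 CPM, and *Rps27l* at 8.09 ± 0.379 and 8.07 ± 1.21 CPM. For *Rpl36al* the log2 fold change was -0.18 ± 0.143 (SE), and -0.34 without corticosterone library 5 (adjusted p = 0.0555 with edgeR). Per kilobase of merged exons in vehicle, *Rpl36al* was at 26.9, *Rpl7l1* at 11.6, *Rpl22l1* at 11 and *Rps27l* at 9.91 CPM. Of the 6 genes that did not pass the filter, *Rpl3l*, the form of striated muscle, had 2 to 13 reads per library. *Rpl10l* and *Rpl39l*, both known from the testis, had 1 read in 1 library and 0 to 10 reads per library. *Rpl9-ps1* had 1 read in all and *Rpl36-ps4* had 0. *Rpl24* had only 3 to 10 reads per library. It shares exons on its strand with another annotated gene, *Gm28037*, and its copies held 15139 reads in all.

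GC content of the transcripts moved with the estimates. Across the 85 genes, the log2 fold change and the GC content of the longest transcript had a rank correlation of -0.48, and across 15983 tested genes it was -0.51. Genes are not independent replicates, and the libraries are shared by all points. Of the 42 genes with a GC content above the median of 50.7%, 39 had estimates below 0 (median -0.14), and of the other 43 it was 26 (median -0.03). The slope of the other genes' deviations on GC content was 0.06, 0.14, 0.18 and -0.08 (log2 per 10 percentage points) in vehicle libraries 1 to 4 and 0.20, -0.18, -0.13 and -0.18 in corticosterone libraries 5 to 8, and it therefore divided the libraries as the ribosomal protein genes did. When each library was corrected for its trend with GC content and with transcript length, 59 of the 85 estimates were below 0 with a median of -0.08, and the correlation was -0.01. At an unadjusted p value under 0.05, 17 genes were then lower, against 5.34% of all genes, and 0 passed the adjusted threshold. The first component still carried 63.5% of the variance. Whether the trend arises in the tissue or in the libraries was not tested.

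**Figure D5:**
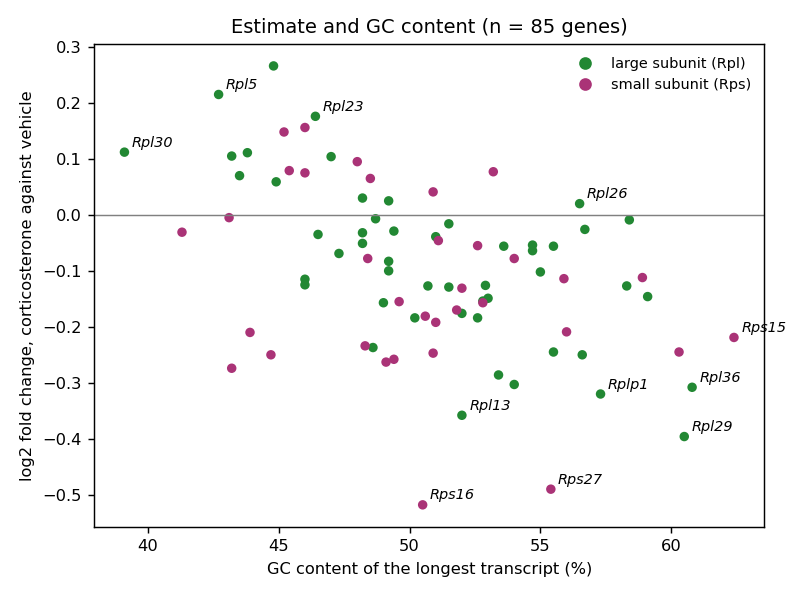
Log2 fold change of corticosterone against vehicle (vertical axis) and GC content of the longest transcript in percent (horizontal axis) for the 85 ribosomal protein genes (large subunit in green, small subunit in purple). Estimates are lower at higher GC content, with a rank correlation of -0.48 over genes.

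The comparison depended on corticosterone library 5. Without it, edgeR's quasi-likelihood test called 14 of the 85 genes lower, against 6.47% of all genes, and 1 higher, against 3.73%. At an unadjusted p value under 0.05, 35 genes were lower, against 15.6% of all genes. The genes called lower in that fit included *Rpl29*, *Rpl37*, *Rpl36*, *Rps24*, *Rps21*, *Rps15*, *Rps14*, *Rps7*, *Rps16*, *Rplp1*, *Rps19* and *Rps10*, with log2 fold changes from -0.24 (*Rps19*) to -0.71 (*Rps16*). *Rpl29* had -0.61 ± 0.102 (SE; adjusted p = 0.0108) and *Rps24* -0.43 ± 0.0904 (adjusted p = 0.0178). *Rpl23* was the one called higher, by 0.26 ± 0.0716 (SE; adjusted p = 0.0387). Genes of all kinds were called in that fit, 1651 in total against 1 with all 8 libraries. Of the genes described above, *Rps27* had -0.50 (adjusted p = 0.113) and *Rpl5* 0.30 (adjusted p = 0.0535) in that fit, neither of which passed. Leaving out this library chooses the samples by how they lie apart, and the fit is a description of the remaining 7 libraries. With the GC and length trend removed as well, 7 of these genes were called, all lower, against 0.828% of all genes in that direction, among them *Rps24*, *Rpl37*, *Rps21*, *Rps7*, *Rpl29* and *Rps19*. Without vehicle library 4, 0 genes were called, and 19 were lower at an unadjusted p value under 0.05, against 8.74% of all genes.

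Markers of other cells moved with some of these libraries. The 5 microglial markers all had estimates below 0 (*Cx3cr1*, *P2ry12*, *Tmem119*, *Csf1r* and *C1qa*), and their sum was 263 to 266 CPM in vehicle and 255, 183, 188 and 217 CPM in corticosterone libraries 5 to 8. The 5 oligodendrocyte markers also had estimates below 0, with sums of 2880 to 5060 CPM in vehicle and 2830 to 3490 CPM in corticosterone, and 0 of either list passed the adjusted threshold with edgeR (2 of each were lower at an unadjusted p value under 0.05, as were 4.52% of all genes). Without corticosterone library 5, 4 of the 5 microglial, 2 of the 5 oligodendrocyte and 1 of the 4 endothelial markers were called lower, against 6.47% of all genes. So were 2 of the 7 markers of hippocampal excitatory neurons. Choroid plexus markers summed to 21.5 to 68.3 CPM in vehicle and 32.2 to 72.0 CPM in corticosterone, with 4 of 5 estimates above 0 (median 1.04). With edgeR, 2 of them were higher at an unadjusted p value under 0.05, as were 4.51% of all genes. Erythrocyte markers summed to 83.1 to 263 and 80.7 to 105 CPM. All 5 had estimates below 0 (median -0.53), 1 of them lower at that level. Astrocyte markers summed to 2710 to 3490 and 2850 to 3320 CPM, and the 4 endothelial markers, all with estimates below 0, to 91.5 to 96.4 and 75.7 to 86.0 CPM. The endothelial sums did not overlap, nor did the microglial sums. Of single markers, 0 of the 4 endothelial and 2 of the 5 microglial were fully separated, against 1.68% of all genes in the lower direction. At an unadjusted p value under 0.05, 1 endothelial and 1 astrocyte marker were lower with edgeR. The part of these cells in the ribosomal protein values was not tested.

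Other genes of the translation machinery were counted in the same fit. Eukaryotic elongation and initiation factors and other mRNAs with a TOP tract had 9 of 18 estimates below 0 and a median of -0.01, and their median deviation stayed between -0.04 and 0.06 in every library, a narrower span than the -0.14 to 0.14 of the ribosomal proteins. *Eif3e*, a subunit of an initiation factor, had the smallest p value there, with a log2 fold change of 0.21 ± 0.0937 (SE; adjusted p = 0.545 with edgeR). Genes of ribosome biogenesis and RNA polymerase I had 14 of 30 below 0 (median 0.02), with *Taf1d* at 0.29 ± 0.119 and *Ubtf* at -0.17 ± 0.074 (SE). Mitochondrial ribosomal proteins had 51 of 77 below 0 (median -0.03), and proteasome subunits, another large complex with fixed proportions, had 20 of 38 (median -0.01). Without corticosterone library 5, 2 of the factors with a TOP tract were called lower and 2 higher. In that fit it was 2 and 4 in ribosome biogenesis, 3 and 2 among mitochondrial ribosomal proteins, and 0 and 1 in the proteasome. Of all genes, 6.47% were called lower and 3.73% higher there. With all 8 libraries, 0 of the genes on these lists passed the adjusted threshold with edgeR. Those with an unadjusted p value under 0.05 were 1 higher and 0 lower among the factors with a TOP tract, 2 and 1 in ribosome biogenesis, 1 and 4 among mitochondrial ribosomal proteins, and 1 and 1 in the proteasome, where 4.51% of all genes were higher and 4.52% lower at that level.

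A list made for the mTORC1 pathway and the control of TOP mRNAs, which also includes the glucocorticoid target *Fkbp5*, had 11 of 25 estimates below 0. It was drawn up with earlier results of these data known. Of this list, 1 gene passed the threshold. This was *Fkbp5*, a co-chaperone of the glucocorticoid receptor and a well-known target of it, which was at 124, 92.2, 104 and 89.2 CPM in vehicle and 166, 183, 176 and 166 CPM in corticosterone. The groups did not overlap, and the log2 fold change was 0.76 ± 0.0968 (SE; adjusted p = 0.0481 with edgeR's quasi-likelihood test). Corticosterone library 5, at 166 CPM, lay with its own group here. *Fkbp5* is given because it passed with all 8 libraries, which favours genes in which library 5 lies so. Nothing about library 5 can therefore be read from this gene. *Fkbp5* was the only gene of all 16018 tested that passed in this edgeR fit, and 0 genes passed when vehicle library 4 was left out. The paper reported a longer list of responsive genes from its own DESeq2 analysis of these mice. The count of 1 therefore belongs to this fit only.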

How the data were processed

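Stranded mRNA libraries of 8 ventral hippocampi were sequenced as paired reads of 100 bases. The authors aligned them to mm10 with GSnap, counted reads per gene with HTSeq and deposited the unnormalized counts. The annotation release and strand setting of the counting are not given in the sources used here, so 28 genes that share exons on the same strand (mostly with small nucleolar RNAs) and 19 on the opposite strand are uncertain. Groups came from the sample titles.

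Here, counts were tested with edgeR 4.0.16 (R 4.3.3; TMM, filterByExpr, quasi-likelihood test, Benjamini-Hochberg adjustment over all 16018 genes, threshold 0.05). The test was checked on simulated data. Single genes were compared by exact two-sided permutation over 70 assignments. Symbols from GENCODE M21 matched 50462 of 50686 identifiers. Copies were found with BLAST 2.17.0. Alternatives were DESeq2 1.42.0, limma-voom (limma 3.58.1), other scalings and filters, robust dispersion, removal of the GC and length trend (splines), pseudogene rows added to parents, an adjusted p value under 0.1, other gene lengths and each library left out. This gene family and the lists were taken up with earlier results of these data known, although the rule for members uses none. Genes named were the 5 of smallest p per direction, those whose groups do not overlap, the 5 highest and lowest per length, the members of the small functional groups, *Rps6*, *Rps27a*, *Rps19*, the X-linked genes and those that did not pass the filter. Genes called without corticosterone library 5 and a few with many reads on copies are named as well, chosen after their values were seen. Named genes whose uncorrected log2 fold change over all 8 libraries is smaller than its standard error are described by level, without that value. Some genes that this rule selects are not reported here.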

Additional observations from a re-analysis of the deposited data

Results flagged for a closer look

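Among the named genes and 3 library measures, 90 groups of 4 libraries were searched for 1 value far from the other 3, and 7 were found. Chance gives such a value in about 1 of 20 groups. In the corticosterone group, library 5 stood above the other 3 in *Rplp1* (497 CPM, next 277), *Rplp2* (70.4 CPM, next 31.0), *Rpl29* (88.2 CPM, next 54.9) and *Rpsa* (299 CPM, next 258), and in the share of reads on the 91 genes (0.744%, next 0.634%). In the vehicle group, library 3 stood below the others in *Rps3a1* (145 CPM, next 165), and library 1 above them in *Rpl17* (4.26 CPM, next 4.07). The cause was not tested.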

How the results depend on the processing

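On all 8 libraries, 0 ribosomal protein genes passed the threshold with edgeR's quasi-likelihood test under every scaling, filter and threshold tried, and 0 with DESeq2 or limma-voom. Leaving out 1 library gave 0 to 15, with 15 without corticosterone library 5 and 0 without each of the others. Without that library and with the GC and length trend removed, an alternative chosen after seeing the data, 7 passed, 40 had an unadjusted p value under 0.05 (16.3% of all genes did) and 33 had groups that did not overlap (14.3% of all genes). Against 4 genes at an unadjusted p value under 0.05, DESeq2 gave 7 (5.39% of all genes), limma-voom 7 (9.21%), pseudogene rows added to their parents 7 (9.06%), no filter on low counts 16 (8.90%) and removal of the trend 18 (9.72%), and leaving out 1 library gave 1 to 42 (42 without corticosterone library 5, where 29.0% of all genes passed, 19 without vehicle library 4, and 1 without vehicle library 1 or corticosterone library 7 or 8). Against 1 gene whose groups did not overlap, removal of the trend gave 2, and leaving out 1 library gave 1 to 28 (28 without corticosterone library 5, where 24.3% of all genes did not overlap). The median log2 fold change stayed below 0 throughout, between -0.17 and -0.07. The median level of the genes per kilobase in vehicle was 24.8 ± 2.87 CPM with merged exons (mean and SD of the library medians), 40.5 with the longest transcript and 67.6 with the principal transcript, the latter chosen after seeing the data. Of the 25 named genes with an estimate of at least its standard error, *Rps15* turned from -0.22 to 0.01 when the trend was removed and to 0.02 when corticosterone library 5 was left out as well, and *Rpl36a* from -0.16 to 0.00 when pseudogene rows were added. The other 17 named genes have estimates smaller than their standard errors, and each changed sign under at least 1 alternative.

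No paired analysis was possible because the 2 groups share no replicate number. Each mouse is 1 library, and the design cannot reach an exact p value under 0.0286. Reads placed on copies limit what the row of a single gene measures; *Rps27* holds 3.24% and *Rps16* 4.34% of the sum with its copies.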
